A study of Mus musculus with 8 samples.

Results

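The genes of the γ-tubulin ring complex, the template from which cells grow microtubules, were followed in RNA-seq of mouse corneas. The 10 genes are Tubg1, Tubg2, Tubgcp2, Tubgcp3, Tubgcp4, Tubgcp5, Tubgcp6, Mzt1, Mzt2 and Nedd1, taken by symbol from a table of 23597 genes, and 10 of 10 were found. The family was taken up because Tubg1 had been among the genes of smallest p in an earlier comparison of these same samples. The values of Tubg1 in that comparison are therefore given as a description, with no test.

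The samples came from mice made to have dry eye by injections of scopolamine, a muscarinic antagonist, and corneas were taken on day 14. The drug compared was ICI 118551, which blocks β2-adrenergic receptors. The 4 ICI samples are from mice that received it and the 4 Scop samples from mice that did not, and each of the 8 samples pooled 4 corneas. All samples of both groups had received scopolamine, and corneas without dry eye were not analysed here, so each difference is between ICI and Scop. The sources used here do not give strain, sex, age or drug dose, or say which mice contributed to a pool. The p-values therefore cover only the spread between these samples, which may be technical.

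A microtubule has a slow-growing minus end, and new microtubules start there on a ring of γ-tubulin. The γ-tubulin complex proteins (GCPs), encoded by the Tubgcp genes, hold γ-tubulin in that ring. The small proteins MZT1 and MZT2 bind the GCPs, and NEDD1 brings the ring to centrosomes and spindles. Dividing basal cells of the corneal epithelium need such rings to build spindles, and differentiated epithelial cells also grow microtubules away from the centrosome.

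Mammals have a pair of γ-tubulin genes of very similar sequence. In the mouse they lie side by side on the plus strand of chromosome 11 (build GRCm38, RefSeq positions), Tubg1 at 101119904 to 101126423 and Tubg2 at 101155874 to 101161787, with 29450 bases between them. Their coding sequences in GENCODE have the same length, 1353 bases without the stop codon, and 91 of these bases differ, so 93.3% are identical. The longest run without a difference is 164 bases. Of 1254 windows of 100 bases, 70 hold no difference, and 56.9% hold at least 3. The following coding stretches show a window with many differences between the genes and another without any. Untranslated sequence was not compared. The first pair is the 100-base window within 1 exon that differs most, in coding exon 11 of both genes, with the 18 differing bases in capitals.
Tubg1, chr11:101126032-101126131: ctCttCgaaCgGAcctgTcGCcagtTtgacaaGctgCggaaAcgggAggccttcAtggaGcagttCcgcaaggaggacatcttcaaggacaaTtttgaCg
Tubg2, chr11:101161405-101161504: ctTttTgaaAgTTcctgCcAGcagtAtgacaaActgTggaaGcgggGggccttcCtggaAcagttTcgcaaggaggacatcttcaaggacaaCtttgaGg
The next stretch, from exon 8, is the same in both genes (Tubg1 at 101124423 to 101124522, Tubg2 at 101160247 to 101160346) and has no capitals.
Tubg1 and Tubg2: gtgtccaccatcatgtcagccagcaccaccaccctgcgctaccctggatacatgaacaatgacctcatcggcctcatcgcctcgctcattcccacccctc
How reads that match both genes were counted is not given in the sources used here. The split between Tubg1 and Tubg2 is therefore uncertain to the extent that fragments lay in such stretches.

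Levels are in FPKM, which divide a gene's fragments by its length and by the depth of the library. Libraries held 34354346 (Scop replicate 3) to 39885822 (Scop replicate 1) counted fragments, worked out from the ratios of FPKM values between libraries. These totals leave out 57 genes whose fragments could not be recovered. Epithelial markers were abundant in the 8 libraries, with the 7 genes of that list (Krt12, Krt5, Krt14, Aldh3a1, Pax6, Klf5 and Trp63) summing to between 32906 and 37670 FPKM. Lens and retina genes summed to at most 0.816. Scop replicate 3 stood apart, with keratocyte genes summing to 587 FPKM against 1600 to 2202 in the other 7 libraries. Gm26917, a locus that collects ribosomal RNA reads, took 2.13% to 2.23% of fragments in ICI, 0.401% to 0.651% in Scop replicates 1, 2 and 3, and 2.87% in Scop replicate 4. Each of the 10 genes passed the filter of a mean of at least 0.5 FPKM, and all were tested among 12100 genes. Tubg2 lay just above that filter, at a mean of 0.719 FPKM over the 8 libraries.

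Ranked by mean FPKM over the 8 libraries, Mzt1 was highest (17.6), followed by Tubg1 (15.5), Mzt2 (11), Tubgcp3 (8.81), Tubgcp2 (8.49), Tubgcp4 (7.09), Tubgcp5 (4.36), Nedd1 (4.09), Tubgcp6 (3.45) and Tubg2 (0.719). Most neighbours in that order overlapped in their ranges over libraries. Tubgcp4 against Tubgcp5 and Tubgcp6 against Tubg2 were the neighbouring pairs without overlap. Tubgcp3 exceeded Tubgcp2 in 5 of 8 libraries, which leaves their order unsettled. Mzt1 exceeded Tubg1 in 7 of 8 libraries and Tubg1 exceeded Mzt2 in 7 of 8. Tubgcp3 and Tubgcp2 varied least over the 8 libraries (coefficients of variation of 4.76% and 5.58%), and Tubg2 varied most (25.6%).

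**Figure D1:**
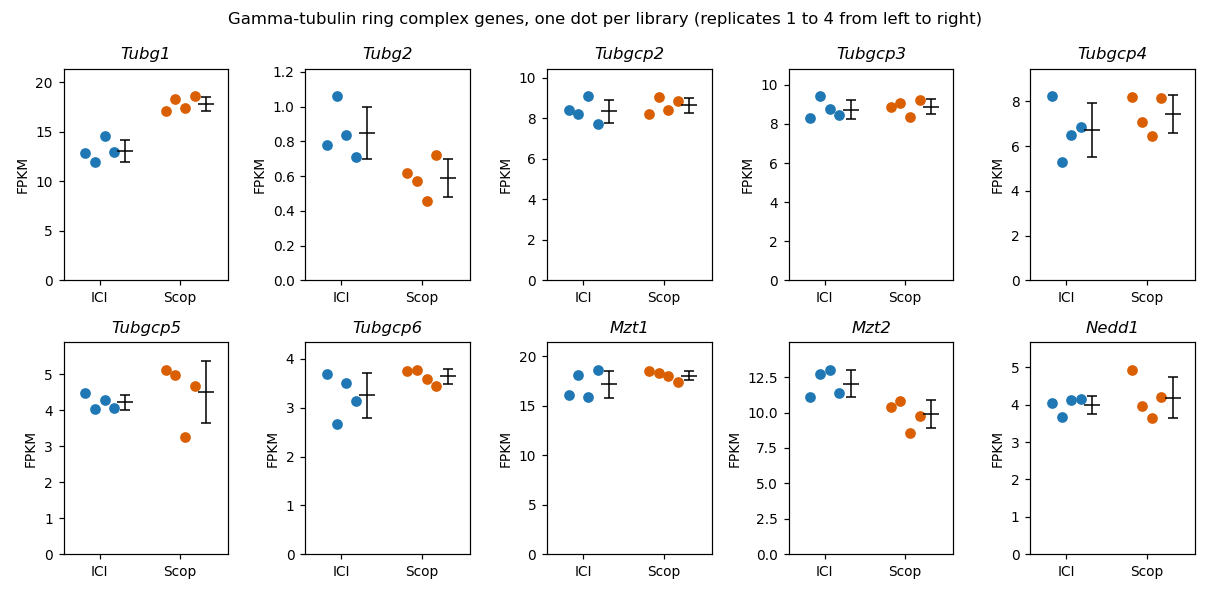
FPKM (y axis, from 0) of the 10 genes in the 4 ICI and 4 Scop libraries, one dot per library, with the group mean and SD as a black bar. The 4 ICI dots of Tubg1 lie below the 4 Scop dots, those of Mzt2 lie above them, and the groups overlap in the other 8 genes.

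Tubg1, the γ-tubulin gene active in most tissues and needed for cell division, was lower with ICI 118551. It stood at 12.9, 11.9, 14.6 and 13.0 FPKM in ICI replicates 1 to 4, and at 17.1, 18.3, 17.4 and 18.6 in Scop replicates 1 to 4. The highest ICI library (14.6) was below the lowest Scop library (17.1). The means were 13.1 ± 1.12 and 17.8 ± 0.706 FPKM (SD, n = 4 per group here and below), so the ICI mean was 73.5% of the Scop mean. These values rested on 922 to 1124 fragments per library in ICI and 1171 to 1406 in Scop. On the log2(FPKM + 1) scale, which understates changes of low genes, the difference between ICI and Scop was -0.42 (SE 0.07, 95% interval -0.57 to -0.27). It ranged from -0.47 to -0.38 when each library was left out in turn. Tubg1 led to the choice of the family, so this difference may be overstated, and neither its interval nor that range is a test. In bulk tissue, fewer cells of a type and less RNA per cell cannot be told apart.

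Tubg2, the sister gene, known mainly from brain, was low in these corneas and differed in the other direction. It was at 0.780, 1.06, 0.839 and 0.710 FPKM in ICI replicates 1 to 4 and at 0.618, 0.569, 0.456 and 0.720 in the Scop replicates. ICI replicate 4 lay below Scop replicate 4, so the groups overlapped. Behind these values were 68 to 107 fragments per library in ICI and 40 to 66 in Scop, which leaves a larger counting error than for any other of the 10 genes. The means were 0.848 ± 0.153 against 0.591 ± 0.110 FPKM, and the log2 difference of 0.21 (SE 0.09, 95% interval 0.02 to 0.41) did not pass limma's test adjusted over all genes (adjusted p = 0.382). With a pseudocount of 0.1 in place of 1 the difference was 0.46 (adjusted p = 0.386), with one of 5 it was 0.06 (adjusted p = 0.392), and limma-voom on the recovered fragments gave 0.52 (adjusted p = 0.414).

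Since FPKM are scaled by length, the γ-tubulin genes can be set side by side. Tubg1 made up 94.3%, 91.8%, 94.6% and 94.8% of the summed γ-tubulin FPKM in ICI replicates 1 to 4, and 96.5%, 97.0%, 97.4% and 96.3% in the Scop replicates. No ICI library reached the share of the lowest Scop library (93.9% ± 1.39 against 96.8% ± 0.521). The sum of Tubg1 and Tubg2 was 13.9 ± 1.05 against 18.4 ± 0.772 FPKM, so the higher Tubg2 values did not make up the difference in Tubg1. These proportions contain the Tubg1 difference and are given without a test. The gene lengths implied by the FPKM and the recovered fragments were 1963 bases for Tubg1 and 2554 for Tubg2. The coding transcripts in GENCODE have 1802 and 1754 bases, so the level of Tubg2 relative to Tubg1 depends on the gene model.

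The scaffold genes were much more even. Tubgcp2 and Tubgcp3 encode GCP2 and GCP3, which with γ-tubulin form the small complex that is the repeating unit of the ring. Tubgcp2 ranged from 7.73 to 9.09 FPKM in ICI and from 8.22 to 9.07 in Scop, and Tubgcp3 from 8.31 to 9.42 and from 8.34 to 9.25. For both genes the ICI range enclosed the Scop range. Their log2 differences were -0.04 (95% interval -0.19 to 0.10) and -0.02 (-0.15 to 0.11), with limma's adjusted p = 0.803 and 0.913. The lower bounds of both intervals lie closer to 0 than the Tubg1 estimate of -0.42, and the gap between Tubg1 and these genes was not tested.

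Tubgcp4, Tubgcp5 and Tubgcp6 encode the GCPs that enter the full ring in addition to the small complexes. Tubgcp4 ran from 5.30 (replicate 2) to 8.23 FPKM (replicate 1) within ICI and from 6.44 to 8.18 within Scop. Tubgcp5 was at 4.03 to 4.47 FPKM in ICI and at 5.11, 4.98, 3.24 and 4.68 in Scop replicates 1 to 4. Scop replicate 3 alone placed its groups in overlap, and without that library the difference was -0.19 in place of -0.07. Tubgcp6 was at 2.67 to 3.69 FPKM in ICI and 3.45 to 3.77 in Scop. Their log2 differences were -0.14 (95% interval -0.40 to 0.12), -0.07 (-0.31 to 0.18) and -0.13 (-0.32 to 0.06), with limma's adjusted p = 0.666, 0.842 and 0.563. Single libraries weighed on these values. Tubgcp4 was at -0.04 without ICI replicate 2 and at -0.23 without ICI replicate 1, Tubgcp6 at -0.07 without ICI replicate 2, and Tubgcp5 at -0.01 without Scop replicate 1. ICI replicate 2 was the lowest of the 8 libraries for Tubgcp4 and Tubgcp6, as it was for Tubg1.

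The 5 Tubgcp genes together summed to 31.3 ± 1.62 FPKM in ICI and 33.1 ± 2.06 in Scop, with ranges of 29.6 to 33.1 and 30.0 to 34.4 that overlapped. Summed γ-tubulin FPKM divided by this sum was 0.412, 0.438, 0.481 and 0.453 in ICI replicates 1 to 4 and 0.519, 0.555, 0.594 and 0.561 in the Scop replicates. The highest ICI ratio was below the lowest Scop ratio (0.446 ± 0.0286 against 0.557 ± 0.0305). Tubg1 makes up most of the numerator, so this ratio contains the Tubg1 difference and is given without a test.

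Mzt2, which encodes a small GCP-binding protein found on centrosomes and on spindles, differed in the direction opposite to Tubg1. It was at 11.1, 12.7, 13.0 and 11.4 FPKM in ICI replicates 1 to 4 and at 10.4, 10.8, 8.58 and 9.76 in the Scop replicates. The lowest ICI library (11.1) was above the highest Scop library (10.8). The means were 12.1 ± 0.958 against 9.88 ± 0.961 FPKM, an ICI mean of 122.0% of the Scop mean, on 456 to 542 fragments per library in ICI and 313 to 448 in Scop. The log2 difference of 0.27 (SE 0.08, 95% interval 0.09 to 0.44) did not pass limma's test adjusted over all genes (adjusted p = 0.280, and 0.225 to 0.528 over the alternatives). The lowest value was in Scop replicate 3, the library low in keratocyte genes, and without it the difference was 0.21. The ratio of Mzt2 to Tubg1 was 0.860, 1.07, 0.891 and 0.881 in ICI and 0.609, 0.589, 0.494 and 0.526 in Scop. This ratio, too, contains the Tubg1 difference and is given without a test.

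**Figure D2:**
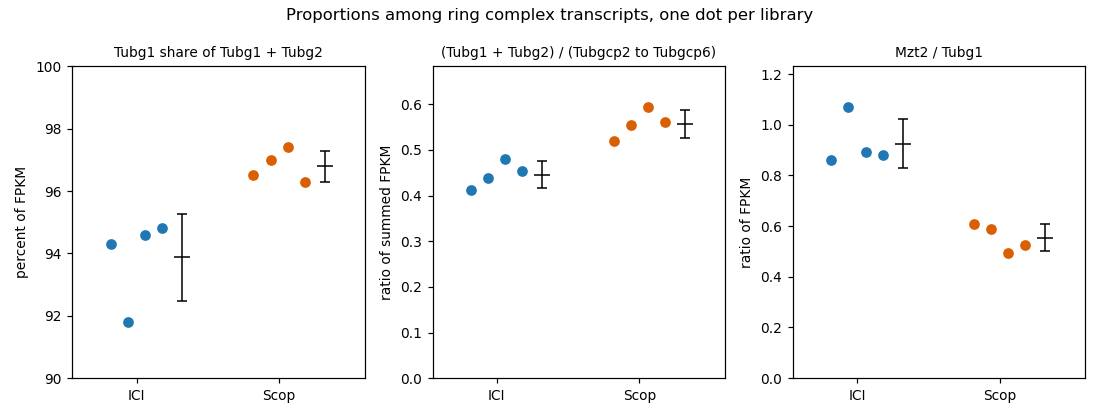
Tubg1 as a percent of the summed FPKM of both γ-tubulin genes (left, axis from 90 to 100), summed γ-tubulin FPKM divided by the sum of the 5 Tubgcp genes (middle) and Mzt2 divided by Tubg1 (right), one dot per library with the group mean and SD in black. The ICI dots lie below the Scop dots on the left and in the middle, and above them on the right, without overlap. Each quantity contains the Tubg1 difference and was not tested.

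Mzt1, whose product lets GCPs be recruited and activated, did not share the difference of Mzt2. It was at 15.9 to 18.6 FPKM in ICI and 17.4 to 18.5 in Scop, and the Scop libraries lay within the ICI range (log2 difference -0.07, 95% interval -0.21 to 0.07, limma's adjusted p = 0.683). Nedd1, the adaptor that targets the ring, was at 3.66 to 4.16 FPKM in ICI and 3.64 to 4.93 in Scop. Its difference was -0.05 (95% interval -0.24 to 0.14, limma's adjusted p = 0.833). It turned to 0.01 without Scop replicate 1, the library with the highest Nedd1 value.

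Across the complex, 0 of the 9 genes other than Tubg1 passed limma's test adjusted over all 12100 genes, where 0% of all tested genes passed. At an unadjusted p under 0.05, 12.0% of all tested genes passed, 7.46% as lower and 4.56% as higher in ICI. Of the 9 genes other than Tubg1, 0 were lower and 2, Mzt2 and Tubg2, were higher by that criterion. Mzt2 met it with any 1 library left out. Tubg2 did not meet it without ICI replicate 2 or 3, or without Scop replicate 1, 2 or 3, and without Scop replicate 3 Tubgcp5 met it as lower. Complete separation of the groups was seen in 6.98% of all tested genes, 4.36% with ICI lower and 2.63% with ICI higher. Among the 10 it was seen in Mzt2 (higher) and in Tubg1 (lower), the gene that led to the choice of the family. Tubg2 also separated, as higher, without ICI replicate 4 or without Scop replicate 4. In those settings 541 and 406 of the 12100 genes were higher without overlap. Tubgcp5 separated, as lower, without Scop replicate 3, a setting in which 1169 of the 12100 genes were lower without overlap. The median log2 difference of the 10 genes, Tubg1 included, was -0.06, beside -0.02 over all tested genes. Negative values were found for 8 of the 10 genes, Tubg1 included, and for 6709 of the 12100. The median of the complex thus lay near that of all tested genes, and the larger values were those of Tubg1, Mzt2 and Tubg2, in opposite directions.

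**Figure D3:**
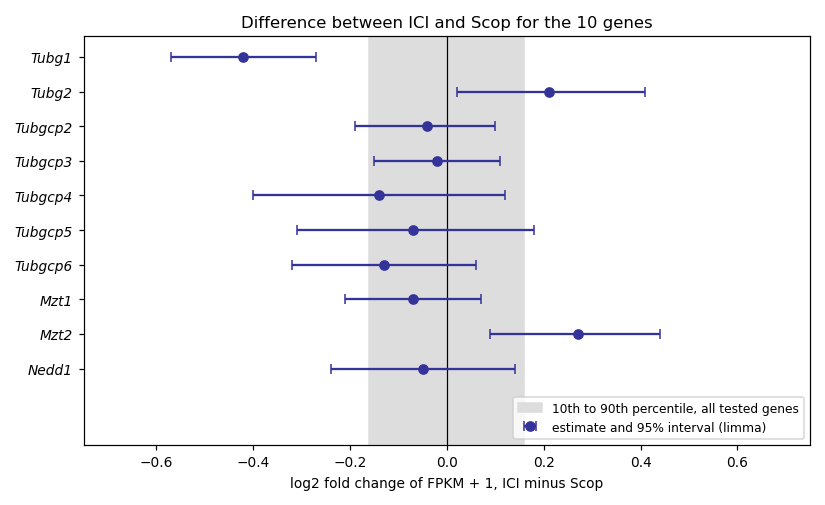
Log2 difference of FPKM + 1, ICI minus Scop (x axis), for each of the 10 genes (points) with limma's 95% intervals (bars). The grey band spans the 10th to 90th percentile of all tested genes (-0.16 to 0.16), and Tubg1 (-0.42), Mzt2 (0.27) and Tubg2 (0.21) lie outside it. The interval of Tubg1 is a description, since this contrast led to the choice of the family.

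Transcripts of genes that cooperate with the ring were counted from lists chosen by function. For comparison, 7.46% of all tested genes were lower and 4.56% higher at an unadjusted p under 0.05. Of 9 tested recruiters and activators, which anchor the ring at centrosomes and Golgi, 0 passed the adjusted test and 0 had an unadjusted p under 0.05 (median log2 difference -0.08). Cep192, a scaffold of mitotic centrosomes, had -0.14 (SE 0.07), Pcnt, the pericentrin gene, -0.12 (SE 0.08) and Cdk5rap2, a ring activator, -0.09 (SE 0.07). Among 15 tested genes of centriole duplication 0 passed the adjusted test, 0 were lower and 1 was higher at an unadjusted p under 0.05 (median -0.08). That gene was Cetn2, which encodes a centrin (50.1 ± 2.82 against 46.1 ± 1.47 FPKM). Plk4, the kinase that starts duplication, had -0.16 (SE 0.08) and Cenpj -0.14 (SE 0.09). Of 7 tested genes for minus ends outside the centrosome, 0 passed either threshold (median -0.06), with Camsap1 and Camsap2, minus-end binding proteins, at -0.10 (SE 0.07) and -0.09 (SE 0.07) and Katna1, a microtubule-severing enzyme gene, at -0.08 (SE 0.06).

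Augmin binds existing microtubules and brings γ-tubulin rings to their sides through NEDD1, so that new microtubules branch off. Of its 8 subunit genes 0 passed the adjusted test, and 3 were lower and 0 higher at an unadjusted p under 0.05 (median -0.11). Among all tested genes 7.46% were lower at that threshold, and 4.36% were lower without overlap. Haus8, the subunit that contacts the microtubule, was at 3.26, 3.10, 3.8 and 3.01 FPKM in ICI replicates 1 to 4 and at 4.68, 5.4, 4.23 and 4.32 in the Scop replicates, without overlap. Its log2 difference was -0.40 (SE 0.09, limma's adjusted p = 0.179), close in size to that of Tubg1. Haus4 and Haus3 were at 5.27 ± 0.479 against 6.16 ± 0.429 and 1.95 ± 0.321 against 2.40 ± 0.0891 FPKM, with limma's adjusted p = 0.356 and 0.387.

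The α- and β-tubulins are the subunits from which the ring starts a microtubule. Of 14 such genes 9 were tested. The adjusted test passed 0, and at an unadjusted p under 0.05, 6 were lower and 0 higher (median -0.28). The share of all tested genes lower at that threshold was 7.46%, and 4.36% were lower without overlap. Tubb5, a widely expressed β-tubulin gene, was at 117, 95.9, 129 and 97.7 FPKM in ICI replicates 1 to 4 and at 137, 142, 145 and 150 in the Scop replicates, without overlap (log2 difference -0.39, SE 0.09, limma's adjusted p = 0.181). Tuba4a and Tubb4b were also without overlap, at 13.6 ± 1.80 against 18.7 ± 2.84 and 270.8 ± 17.2 against 331 ± 37.7 FPKM (adjusted p = 0.216 and 0.254). Tubulin genes resemble one another in sequence, so fragments may be split among them. Of 14 tested genes for tubulin folding, among them the chaperonin that also folds γ-tubulin, 0 passed the adjusted test, and 2 were lower and 0 higher at an unadjusted p under 0.05 (median -0.05). Those were the chaperonin subunit gene Cct3 (-0.18, SE 0.07) and the tubulin cofactor gene Tbcb (-0.16, SE 0.06), while Tbce had 0.17 (SE 0.08).

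For spindle nucleation and plus-end growth, 12 genes were tested, and 0 passed the adjusted test while 2 were lower and 0 higher at an unadjusted p under 0.05 (median -0.13). These were Ran, the GTPase that releases spindle factors near chromatin (91.9 ± 9.85 against 106.0 ± 5.51 FPKM), and Mapre1, which tracks growing plus ends (19.2 ± 0.764 against 21.0 ± 0.675). Neither gene overlapped between the groups. Of all tested genes, 7.46% were lower at that threshold and 4.36% were lower without overlap. Rcc1, the exchange factor of Ran, had -0.13 (SE 0.06, limma's adjusted p = 0.419).

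**Figure D4:**
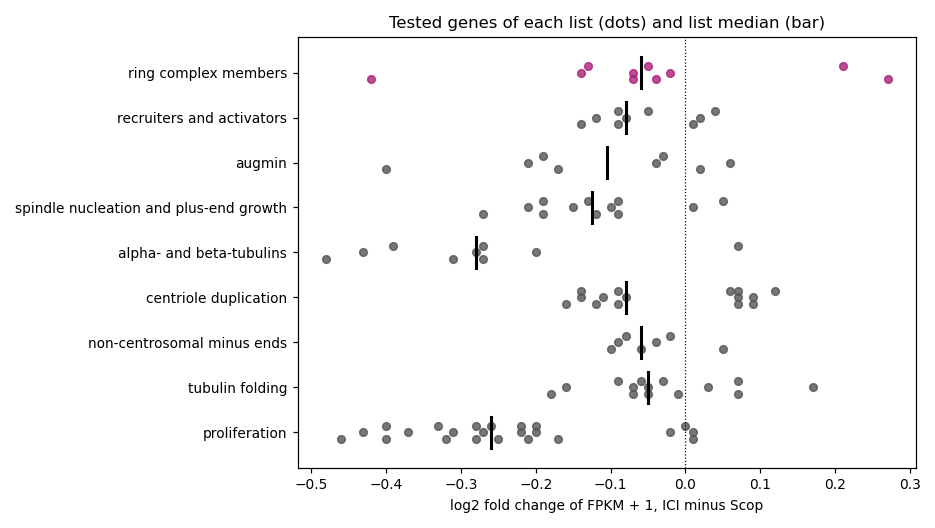
Log2 difference of FPKM + 1, ICI minus Scop (x axis), for the tested genes of the ring complex and of 8 lists (dots), with each list's median as a black bar. The medians run from -0.28 for the α- and β-tubulins and -0.26 for proliferation to -0.05 for tubulin folding, and that of the ring complex is -0.06.

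Genes of cell proliferation had mostly negative values, as Tubg1 did. Of 23 tested genes of that list 0 passed the adjusted test, 9 were lower and 0 higher at an unadjusted p under 0.05, and 20 had negative values (median -0.26). Among all 12100 tested genes, 7.46% were lower at that threshold and 6709 had negative values. The mean log2(FPKM + 1) of the list was 3.0 to 3.49 in ICI and 3.44 to 3.57 in Scop, with overlap between ICI replicate 3 and Scop replicate 1. Those libraries, close on the proliferation scale, had 14.6 and 17.1 FPKM of Tubg1. ICI replicate 2 was lowest in both the list and Tubg1. The part of proliferation in the Tubg1 difference was not tested. Rrm2, Mcm5 and Top2a, genes of nucleotide supply and DNA replication, had the smallest p of the list, at -0.40 (SE 0.11), -0.46 (SE 0.13) and -0.40 (SE 0.12).

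**Figure D5:**
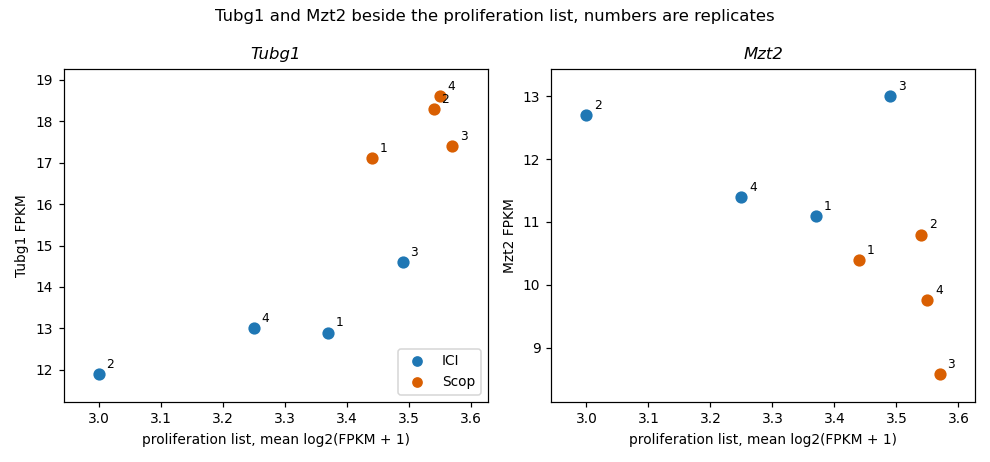
FPKM of Tubg1 (left) and Mzt2 (right) against the mean log2(FPKM + 1) of the proliferation list, one dot per library with its replicate number, axes not starting at 0. The ICI libraries spread from 3.0 to 3.49 on the x axis and the Scop libraries from 3.44 to 3.57, and ICI replicate 3 lies among the Scop libraries on this axis but below them in Tubg1.

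Markers of other cell types and loci of ribosomal RNA reads differed between libraries too. The counts below stand beside 7.46% of all tested genes lower and 4.56% higher in ICI at an unadjusted p under 0.05. Keratocyte genes summed to 1606 to 2202 FPKM in ICI and to 587 to 1913 in Scop, and without Scop replicate 3, the lowest, the Tubg1 difference was -0.43. Of 8 keratocyte genes 7 had positive log2 differences (median of the list 0.49). The adjusted test passed 0, and at an unadjusted p under 0.05, 1 was lower and 1 higher. Thy1 was lower in ICI (0.549 ± 0.159 against 1.34 ± 0.335 FPKM) and Fn1 higher (43.5 ± 2.84 against 32.5 ± 4.79 FPKM). Of 6 genes raised in stressed squamous epithelium (Krt16, Krt17, Krt6a, Sprr1a, Cnfn and Ivl), 6 had lower means in ICI, with 0 past the adjusted test and 4 at an unadjusted p under 0.05 (median log2 difference -0.90). Krt17 was at 10.3 ± 3.20 against 20.6 ± 8.86 FPKM and Ivl at 3.58 ± 0.345 against 5.03 ± 0.650. Their sum, most of it Krt6a, was 1286 to 1474 FPKM in ICI and 1395 to 2448 in Scop, highest in Scop replicate 3. Of 3 tested conjunctival genes (Krt13, Krt4 and Krt19) 3 had lower means in ICI, 0 passed the adjusted test and 2 had an unadjusted p under 0.05 (median -0.31), with sums of 1191 to 1259 and 1114 to 1857 FPKM. Of 4 genes of the corneal endothelium 3 had higher means in ICI and 0 passed either threshold (median 0.27). ICI replicate 1 stood apart there, with Slc4a11 at 41.4 FPKM against 14.8 to 16.1 in the other ICI libraries, and the Tubg1 difference without it was -0.41. The 8 leukocyte genes summed to 41.1 to 46.2 and 37.0 to 45.4 FPKM, most of it Itgam, while Ptprc was at 0.0283 to 0.255. Cd3e, which marks T cells, was at 0 in ICI replicate 4, Scop replicate 2 and Scop replicate 4. Of 3 loci of ribosomal RNA reads (Gm26917, AY036118 and Lars2), 0 passed the adjusted test. At an unadjusted p under 0.05, 3 were higher in ICI (median log2 difference 1.45). Scop replicate 4 resembled ICI in the sum of these loci (5113 FPKM, against 3826 to 3995 in ICI) and had the highest Tubg1 value of the 8 libraries, 18.6 FPKM. The part of these cell types and of ribosomal RNA reads in the differences of Tubg1, Mzt2 and Tubg2 was not tested.

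The genes next to both γ-tubulin genes and Mzt2 on the chromosome were read for comparison, and were chosen after values had been seen. Retreg3, a gene of endoplasmic reticulum turnover, lies 62 bases from Tubg1 in RefSeq (chromosome 11, 101096322 to 101119841). It was at 49.8 ± 3.36 FPKM in ICI and 49.1 ± 1.6 in Scop (log2 difference 0.02, 95% interval -0.11 to 0.14, limma's adjusted p = 0.925). Plekhh3, 891 bases beyond Tubg2, was at 13.2 ± 1.01 against 13.8 ± 1.16 FPKM. The neighbours of Mzt2 (chromosome 16, 15848441 to 15863369) were Prkdc, 6201 bases away, with -0.12 (SE 0.08), and Cebpd, an acute-phase transcription factor gene 23916 bases away. Cebpd was at 3.64 ± 0.468 against 7.41 ± 1.30 FPKM, lower in ICI without overlap and thus opposite in sign to Mzt2 (limma's adjusted p = 0.0788). For Tubgcp2, Tubgcp4, Tubgcp6 and Mzt1, RefSeq gene spans overlap those of a neighbour (Zfp511 by 285 bases, Zscan29 by 506 and Trp53bp1 by 3936, Selenoo by 1243, and Bora by 77), and whether counting used strand is not given in the sources used here, so their values are uncertain by reads in these overlaps.

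Genes were ranked by the Pearson correlation of their log2(FPKM + 1) over the 8 libraries with that of Tubg1. Only tested genes were ranked, and gene models with Gm, Rik, AY, AC or BC symbols were left out. The closest were Tinf2, a telomere-binding protein gene (0.962), and Eif3b, a translation initiation factor subunit gene (0.962). Next came Ogdh, a gene of the citric acid cycle (0.960), Slc35b1, a transporter gene of the endoplasmic reticulum (0.958), and Srcap, a chromatin remodeller gene (0.957). These are descriptions over 8 libraries that share the separation between the groups. All 5 genes had lower values in ICI without overlap between the groups, which their choice by likeness to Tubg1 favoured. The differences ran from -0.08 (SE 0.05) for Srcap to -0.28 (SE 0.05) for Slc35b1.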

How the data were processed

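Per the labels, libraries were prepared with a Vazyme VAHTS kit from pools of 4 corneas and read on a NovaSeq. The submitters' processing notes name fastp, HISAT2, HTSeq and mm10, with tool versions, gene annotation and strandedness not given in the sources used here. The authors deposited FPKM values, with 1 column per sample, and columns were matched to samples by title.

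Whole fragments were recovered from the ratios of FPKM values between libraries for 99.8% of genes (ratio tolerance 5e-13, whole within 0.01). Genes were kept at a mean FPKM of 0.5 or more (12100 genes). On log2(FPKM + 1), limma 3.58.1 (R 4.3.3, trended variance) gave two-sided p-values, adjusted over the kept genes by Benjamini-Hochberg and read at 0.05. The code was tested on simulated data.

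Members, lists and tests were chosen with earlier results of these data known. Named genes are the members, the 3 of smallest p per list and the 5 best correlated with Tubg1. That ranking covered tested genes, without gene models of Gm, Rik, AY, AC or BC symbols. Neighbouring genes were added after values were seen. Alternatives were other pseudocounts (0.1 and 5) and filters (none and 5 FPKM), median-ratio scaling, limma-voom on recovered fragments, a replicate block, and leaving out each library. Coding sequences came from GENCODE M21 and positions from RefSeq (GRCm38.p6), the same build as mm10.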

Additional observations from a re-analysis of the deposited data

Results flagged for a closer look

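In the 86 sets of 4 libraries formed by the named genes and the groups, 1 library stood far from the others of its group by its gap relative to the group's range. Haus3, an augmin subunit gene, was at 2.27 FPKM in Scop replicate 3, against 2.43 to 2.46 in the other Scop libraries (gap over range 0.84, above the critical value of Dixon's test). Chance gives such a gap in about 1 in 20 sets. No such library was found for the 10 ring complex genes. Marker genes of cell types and the loci of ribosomal RNA reads were not searched. Some of them also had a library far from its group, such as Slc4a11 in ICI replicate 1 (41.4 FPKM against 14.8 to 16.1). Another was Gm26917 in Scop replicate 4 (4936 FPKM against 689 to 1120).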

How the results depend on the processing

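The number of tested ring complex genes other than Tubg1 past an adjusted p of 0.05 was 0 under each alternative. Tubg1 kept its direction, with log2 differences from -0.47 to -0.34, and so did Tubg2 (0.06 to 0.52) and Mzt2 (0.20 to 0.30) wherever they were tested. Tubg2, Tubgcp5, Tubgcp6, Nedd1 and some list genes were too low to test at a mean of at least 5 FPKM. Under that filter the list medians turned positive for recruiters and activators (0.01), augmin (0.02) and centriole duplication (0.09), on fewer genes. With 1 library left out, the median of the centriole duplication list ran from -0.09 to 0.02, Nedd1 from -0.10 to 0.01, and the count of ring complex genes lower without overlap from 1 to 2. Leaving out a library moved the difference in the Tubg1 share between -3.24 and -2.24 percentage points, against -2.93 with all, and the other alternatives do not bear on it. Deviations from the group means correlated weakly between same-numbered libraries (0.287, -0.00927, 0.138 and 0.0769 for numbers 1 to 4). With 4 libraries per group, this cannot settle whether the numbers pair the samples. ICI replicates 1 and 3 correlated best with their own number, and replicates 2 and 4 did not. Among the ring complex genes other than Tubg1, 2 had an unadjusted p under 0.05 (Mzt2 and Tubg2), and with the replicate block 1 did (Mzt2), as in 4 of the 8 fits without 1 library. In a further such fit, without Scop replicate 3, they were Mzt2 and Tubgcp5. The Tubg1 difference with the block was -0.42. Depth limits Tubg2, with at most 107 fragments in a library.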
